A study of Mus musculus with 10 samples.

Results

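The genes described are 7 that set the identity of GABA and glutamate neurons or handle their transmitters: Slc32a1, Gad1, Gad2, Slc17a6, Slc17a8, Slc6a11 and Abat. They were chosen by name, and a gene was read from the probe sets that the platform annotation pairs with that gene alone, the brightest over the individual arrays standing for a gene with several. All 7 had such a probe set, 8 probe sets in all (Abat had 2), out of 18820 genes that had one in a table of 35556 probe sets. The RNA came from the hypothalamus of male CDF1 mice, a BALB/c by DBA/2 cross, labelled as 10 to 11 weeks old. Tumour-bearing mice carried C26 colon adenocarcinoma, a graft that makes mice waste and serves to study cancer cachexia; 1000000 cells were injected under the skin of the flank in 0.2 ml of buffered salt solution. Controls had a sham injection of 0.2 ml of that solution, both under isoflurane, and the tissue was taken on day 20. The arrays held 3 control and 5 tumour-bearing mice singly, and 1 pool of RNA each from 4 control and 5 tumour-bearing mice.

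GABA is the main inhibitory and glutamate the main excitatory transmitter of the brain. Neurons make GABA from glutamate with 2 glutamate decarboxylases and load it into vesicles with a single transporter, whereas glutamate is loaded by 1 of 3 related vesicular transporters whose expression differs between brain regions. Released GABA is cleared by membrane transporters of neurons and astrocytes and broken down by a mitochondrial transaminase. In the hypothalamus both kinds of neuron occur in the circuits of feeding; the appetite-stimulating neurons of the arcuate nucleus release GABA, and many neurons of the ventromedial and paraventricular nuclei release glutamate.

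None of the 7 genes passed the test between tumour-bearing and control mice. Of the 7, 6 lay above the filter level (20 in linear units, which is 4.32 as a log2 value, required of 3 or more single-mouse arrays) on all 8 of those arrays and were tested, and 0 of these were called by limma at an adjusted p of 0.05, against 0.0771% of all 12978 tested genes. At an unadjusted limma p under 0.05 there was 1 of 6 (Slc6a11), against 10.3% of tested genes, and by an exact permutation test over the 56 splits of the 8 mice there were 0 of 6, against 8.14%. The differences of the 6 genes, tumour-bearing minus control on the log2 scale, ran from -0.14 (Slc17a6) to 0.085 (Gad2), with 5 below 0 and 1 above. Their median was -0.030, beside a median of -0.010 over all tested genes, of which 54.5% were below 0. The median of the 6 turned positive on leaving out control 2 (0.016) or tumour-bearing mice 3 and 4 (0.0082), and when the model included a midbrain score (0.049), where differences were above 0 for 4 and below 0 for 2. That score, the mean centred log2 level of midbrain dopamine neuron markers, was 0.31 to 0.53 in controls. In tumour-bearing mice it was -0.86 to 0.31, and only mouse 2 reached the control range. A model with this score can hardly separate it from the tumour, so no conclusion is drawn from its values. Hypothalamus RNA is a mixture of cells, so fewer cells of a type and less RNA per cell cannot be told apart for any gene here.

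Medians over all probe sets lay between 5.27 and 5.32 on the 10 arrays, and those of single mice correlated at 0.980 to 0.989 over the tested probe sets. The labelled tissue was checked against its markers: all 14 hypothalamus markers passed the filter, 12 of them on all 8 single-mouse arrays, among them the orexin gene Hcrt at 10.54 to 10.87 and the regional transcription factor gene Nkx2-1 at 6.56 to 7.10 in single mice. Their mean centred log2 level was -0.21 to -0.12 in controls and -0.050 to 0.23 in tumour-bearing mice, groups that did not overlap. The markers contributed unequally to this. The largest differences of the 14 were those of the peptide genes Npy, Oxt, Avp and Trh (0.84, 0.66, 0.50 and 0.49). Nkx2-1 differed by 0.19 and Hcrt by 0.024, and 3 of the 14 were below 0. Markers of neighbouring tissue and of other cells differed between mice. The summed linear level of 13 midbrain dopamine neuron markers was 3074 to 3541 in controls and 1165 to 2899 in tumour-bearing mice, and all 12 tested had a negative difference (median -0.68, log2), with 0 called by limma. The pools, 1 against 1, did not show a drop of that size. Their mean centred log2 level differed by -0.072, against -0.72 between the groups of single mice. Among these markers Th, Nr4a2 and Slc18a2 passed if the test was limited to probe sets of a single gene, if a gene's probe sets were averaged, or without tumour-bearing mouse 2, where Chrna6 passed as well. Over all features tested, these fits called 72, 76 and 66 in that order, against 13 in the main fit. The same counts stand behind each pass in these fits given below. With a midbrain score in the model, or without control 3, the count was 0. Tumour-bearing mouse 2 had the highest midbrain score of its group, at 0.31, so leaving it out favours passes of midbrain markers. All 10 tested oligodendrocyte markers had a negative difference (median -0.44), 7 of them at an unadjusted limma p under 0.05 and 0 called, and their mean centred log2 level was 0.21 to 0.31 in controls and -0.48 to 0.19 in tumour-bearing mice, again without overlap. The median was -0.090 with the midbrain score as a covariate, and Ugt8a passed without tumour-bearing mouse 2. That mouse had the highest oligodendrocyte level of its group, at 0.19, so leaving it out favours this pass too. The summed level of 8 anterior pituitary markers, such as the growth hormone gene Gh, was highest in tumour-bearing mice 3 and 4, where Gh was at 10.45 and 10.48 against 4.21 to 5.51 in the other mice. Control 1 had lower raphe serotonin markers, with a mean centred log2 level of -0.075, than the other controls, at 0.55 and 0.38. Without control 1 the raphe gene Slc6a4 passed, but leaving out the control with the lowest raphe level favours such a pass. With all mice Slc6a4 was at 5.39 ± 1.41 (SD) in controls and 4.08 ± 0.32 (SD) in tumour-bearing mice. The tumour-bearing mean lay under the filter level, so Slc6a4 entered the test mainly through controls, and no conclusion is drawn from its pass. The part of these tissues in the results below was not tested. Medians of the gene lists below with a midbrain score as a covariate, and without mice 3 and 4, are given where they changed sign or moved by over 1.5 times.

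**Figure D1:**
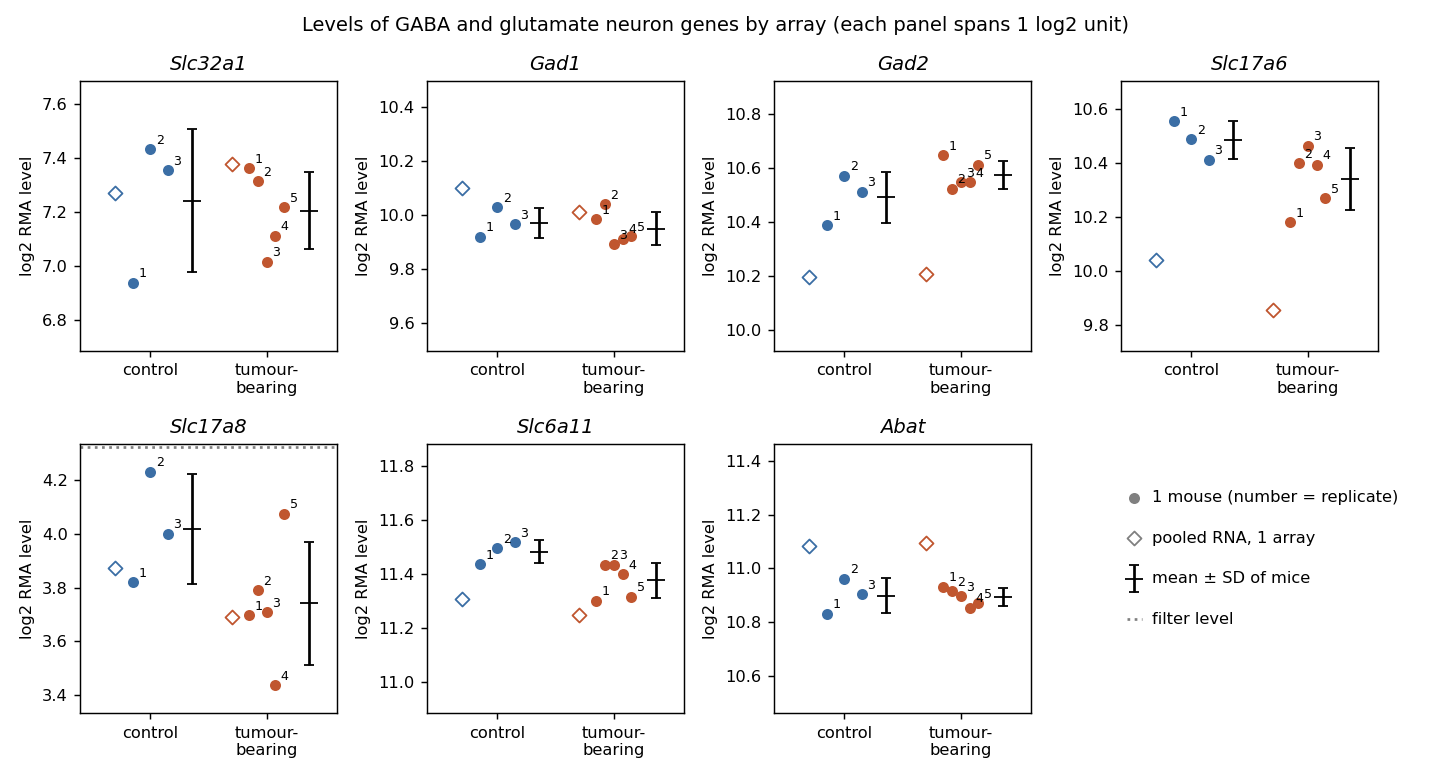
Log2 RMA level (vertical axis) of each of the 7 genes in control and tumour-bearing mice; filled points are single mice with their replicate number, open diamonds the pools, bars the mean and SD of the mice, and every panel spans 1 log2 unit. The groups overlap for every gene except Slc6a11, where they are 0.0011 apart, and both pools lie below all 8 mice for Gad2 and Slc17a6 and above all 8 for Abat.

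Slc32a1 encodes VGAT, the transporter that fills synaptic vesicles with GABA, and so marks every GABA neuron. Its log2 level was 6.94, 7.43 and 7.35 in controls 1, 2 and 3 and 7.36, 7.31, 7.01, 7.11 and 7.22 in tumour-bearing mice 1 to 5. Control 1 was the lowest of all 8 mice and control 2 the highest, so that the whole tumour-bearing group lay inside the control range. The means were 7.24 ± 0.27 (SD, n = 3) and 7.20 ± 0.14 (SD, n = 5), a difference of -0.038 ± 0.12 (SE; limma adjusted p = 0.948). The 95% interval of that difference, -0.31 to 0.23, reaches from a level 19.2% lower to one 17.5% higher. Slc32a1 was the most variable of the 6 between mice of a group, with a within-group SD of 0.19 that exceeded that of 90.0% of tested genes. Its sign rested on single mice: leaving out control 2 gave 0.058, control 3 gave 0.019 and tumour-bearing mouse 3 gave 0.0096.

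Gad1, which encodes GAD67, the decarboxylase that makes most of the GABA in the cell body, varied far less. It was 9.92, 10.03 and 9.97 in the controls and 9.98, 10.04, 9.89, 9.91 and 9.92 in the tumour-bearing mice. All 8 mice lay within 0.15 log2 units of each other, and the highest and the lowest were both tumour-bearing. The means of 9.97 ± 0.055 (SD, n = 3) and 9.95 ± 0.061 (SD, n = 5) differed by -0.022 ± 0.044 (SE; limma adjusted p = 0.905). Changes beyond 8.00% lower or 5.43% higher lie outside the 95% interval. The difference was 0.0070 without control 2.

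Gad2 encodes GAD65, the decarboxylase bound to synaptic vesicles at nerve endings. It was 10.39, 10.57 and 10.51 in controls and 10.65, 10.52, 10.55, 10.55 and 10.61 in tumour-bearing mice, so 2 of 5 tumour-bearing mice (1 and 5) lay above all controls. It was the only one of the 6 with a positive difference, 0.085 ± 0.048 (SE), from 10.49 ± 0.093 (SD, n = 3) to 10.58 ± 0.052 (SD, n = 5), and did not pass (limma adjusted p = 0.581, exact permutation p = 0.161). The 95% interval was 1.53% lower to 14.2% higher. Without control 1, the lowest mouse, the difference was 0.034, and without control 2 it was 0.13. Within each array Gad1 minus Gad2 went from -0.52 ± 0.043 (SD, n = 3) to -0.63 ± 0.082 (SD, n = 5), a change of -0.11 that was not tested.

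Slc17a6 encodes VGLUT2, the vesicular glutamate transporter of most hypothalamic and thalamic glutamate neurons. Its level was 10.55, 10.49 and 10.41 in controls 1 to 3 and 10.18, 10.40, 10.46, 10.39 and 10.27 in the tumour-bearing mice. Tumour-bearing mice 1, 2, 4 and 5 lay below all controls, and mouse 3 lay between controls 2 and 3. The mean was 10.48 ± 0.071 (SD, n = 3) against 10.34 ± 0.11 (SD, n = 5), which is 9.45% lower on the linear scale. This was the largest difference of the 6, -0.14 ± 0.065 (SE), but it did not pass (limma adjusted p = 0.480, unadjusted p = 0.0529, exact permutation p = 0.107). Of all tested genes 81.2% had a smaller absolute difference. It was -0.10 without tumour-bearing mouse 1, the lowest, and -0.20 without mice 3 and 4.

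Slc17a8 encodes VGLUT3, a vesicular glutamate transporter found in some serotonin, cholinergic and GABA neurons. It was below the filter level on all 8 individual arrays and in both pools, and so was not tested. The levels were 3.82, 4.23 and 4.00 in controls and 3.70, 3.79, 3.71, 3.44 and 4.07 in tumour-bearing mice. Mice 1 to 4 of the tumour-bearing group lay under all controls and mouse 5 lay above 2 of them. No fold is given, since every value lay under the filter level. Tph2, the serotonin-synthesising enzyme of the raphe neurons that also use VGLUT3, was below the filter in all tumour-bearing mice and varied between controls as well (4.77 ± 1.44, SD, n = 3, against 3.35 ± 0.28, SD, n = 5).

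Slc6a11 encodes GAT3, the GABA uptake transporter of astrocytes, and was the only one of the 7 whose groups did not overlap. Controls were at 11.44, 11.49 and 11.52, and tumour-bearing mice at 11.30, 11.43, 11.43, 11.40 and 11.31. All 5 tumour-bearing mice were lower than every control, but the highest of them and control 1 were only 0.0011 apart. Among all tested genes 5.19% were lower in this non-overlapping way. The means of 11.48 ± 0.042 (SD, n = 3) and 11.38 ± 0.065 (SD, n = 5) gave a difference of -0.11 ± 0.042 (SE), or 7.08% lower with a 95% interval of 0.769% to 13.0% lower, before adjustment. It did not pass (limma unadjusted p = 0.0322, adjusted p = 0.418), nor by the exact permutation test (two-sided on the absolute difference, p = 0.0893, where the smallest possible is 0.0179). The sign was negative under all 21 alternatives, from -0.13 to -0.084, with limma adjusted p from 0.289 to 0.942.

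Astrocyte markers beside Slc6a11 were mixed. Of 12 tested, 6 were higher and 6 lower with 0 called and a median difference of 0.0052, and their summed linear level was 11017 to 11283 in controls and 10858 to 11281 in tumour-bearing mice. The astrocyte water channel gene Aqp4 differed by -0.51 ± 0.11 (SE; limma adjusted p = 0.219) and the calcium-binding protein gene S100b by -0.26 ± 0.066 (SE; limma adjusted p = 0.261), while the growth factor receptor gene Fgfr3 differed by 0.17 ± 0.059 (SE; limma adjusted p = 0.377). The median was below 0 with control 2 left out (-0.018), or tumour-bearing mouse 1 (-0.0037) or mouse 3 (-0.0027), without mice 3 and 4 together (-0.0013), and with the midbrain covariate (-0.0045). Aqp4 passed if a gene's probe sets were averaged or tumour-bearing mouse 2 was left out. What part astrocyte content had in the Slc6a11 values was not tested.

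Abat encodes GABA transaminase, the mitochondrial enzyme that starts GABA breakdown, and was the steadiest of the 7. It was 10.83, 10.96 and 10.90 in controls and 10.93, 10.92, 10.90, 10.85 and 10.87 in tumour-bearing mice, all of the latter inside the control range. The within-group SD of 0.046 was larger than in only 7.42% of tested genes. The means of 10.90 ± 0.066 (SD, n = 3) and 10.89 ± 0.032 (SD, n = 5) differed by -0.0055 ± 0.037 (SE; limma adjusted p = 0.977), with a 95% interval of 5.95% lower to 5.51% higher. The sign turned with control 2 left out (0.026), or mouse 4 (0.0044) or 5 (0.00024) of the tumour-bearing group. The dimmer Abat probe set, at 5.23 ± 0.091 (SD, n = 3) and 5.14 ± 0.10 (SD, n = 5), differed by -0.088 ± 0.10 (SE; limma adjusted p = 0.815).

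**Figure D2:**
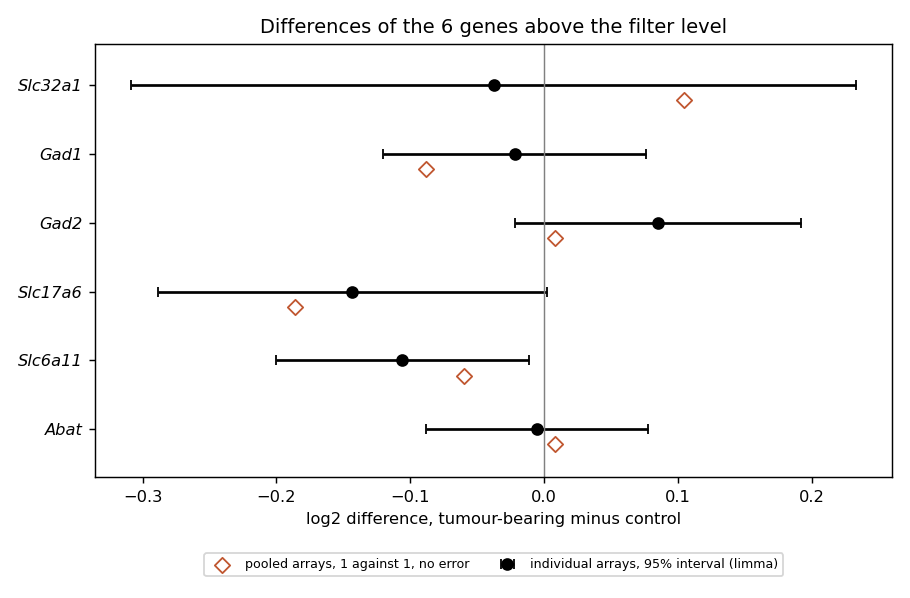
Log2 difference, tumour-bearing minus control (horizontal axis), of the 6 genes above the filter level; black points are the limma estimates over 3 and 5 mice with unadjusted 95% intervals, and open diamonds are the pooled arrays, 1 against 1. Estimates run from -0.14 for Slc17a6 to 0.085 for Gad2, and the interval excludes 0 for Slc6a11 alone.

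The balance of excitatory and inhibitory vesicular transporter genes was compared within each array as Slc17a6 minus Slc32a1, a quantity whose change between groups, not its level, can be read. It was 3.62, 3.06 and 3.06 in controls and 2.82, 3.09, 3.45, 3.28 and 3.05 in tumour-bearing mice. The groups overlapped, with control 1 the highest and tumour-bearing mouse 1 the lowest. The change was -0.11, from 3.24 ± 0.32 (SD, n = 3) to 3.14 ± 0.24 (SD, n = 5; two-sided exact permutation p = 0.625). It became 0.081 without control 1. Leaving out tumour-bearing mouse 1 gave -0.026, and leaving out mice 3 and 4 of that group gave -0.26.

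The pooled arrays, 1 against 1 and without a replicate, are given as values. Slc17a6 was 10.04 in pooled control RNA and 9.85 in pooled tumour-bearing RNA, a difference of -0.19, and Slc6a11 was 11.31 and 11.25, a difference of -0.060, both with the sign seen in single mice. Gad2 (10.20 and 10.21) differed by 0.0080 and Gad1 (10.10 and 10.01) by -0.088. Slc32a1 (7.27 and 7.38) differed by 0.10 and Abat (11.09 in both) by 0.0083, opposite in sign to the small differences in single mice. Slc17a8 stood at 3.87 and 3.69. Which mice went into the pools is not stated, and they may be those arrayed singly, so these values may not be an independent repeat.

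The pools stood apart from the single mice in level, whatever the group. For Slc17a6 the control pool differed from the control mean by -0.44 and the tumour-bearing pool from the tumour-bearing mean by -0.49, and for Gad2 these offsets were -0.29 and -0.37. Abat lay higher in the pools, by 0.19 and 0.20. Both pools lay outside the range of all 8 mice on the same side for these 3 genes, and so they did for 24.9% of tested genes. For Slc17a6, Gad2 and Abat these offsets were larger than the gene's difference between tumour-bearing and control mice.

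Other genes of GABA handling were read from a list of 8, of which 7 were tested and 0 called. Differences were negative for 6 and positive for 1, the median being -0.043 (-0.092, -0.025 and -0.014 on leaving out control 1, 2 or 3; -0.025 without tumour-bearing mice 3 and 4, with 3 above 0 and 4 below; 0.0047 with the midbrain covariate, with 4 above 0 and 3 below). Slc6a13, encoding the GABA transporter GAT2 of meninges and vessels, was 8.34, 8.14 and 8.39 in controls and 7.91, 8.09, 8.11, 8.05 and 7.19 in tumour-bearing mice. The groups did not overlap and mouse 5 was far below the rest, but the difference of -0.42 ± 0.19 (SE) did not pass (limma adjusted p = 0.488). Slc12a2, the chloride importer NKCC1 that raises cell chloride and so weakens GABA inhibition, differed by -0.20 ± 0.068 (SE; limma adjusted p = 0.357). Slc12a5, the neuronal chloride exporter KCC2, differed by -0.043 ± 0.045 (SE; limma adjusted p = 0.794). Pdxk, which makes the pyridoxal phosphate cofactor of the decarboxylases and of the transaminase, differed by 0.12 ± 0.048 (SE; limma adjusted p = 0.430), and Aldh5a1, the next enzyme of GABA breakdown, by -0.014.

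Of 16 other glutamate transport and metabolism genes 14 were tested, 0 were called, and 3 differences were positive and 11 negative (median -0.058, or -0.034 without control 3 or tumour-bearing mouse 5; with the midbrain covariate 0.013, with 7 on each side of 0). Glul, the glutamine synthetase of astrocytes, was 11.25, 11.33 and 11.32 in controls and 11.56, 11.42, 11.37, 11.42 and 11.48 in tumour-bearing mice. The difference of 0.15 ± 0.045 (SE) did not pass (limma adjusted p = 0.306), and in the pools it was -0.056. The astrocyte glutamate transporter genes differed by 0.13 ± 0.041 (SE; Slc1a3, limma adjusted p = 0.321) and -0.011 ± 0.033 (SE; Slc1a2, limma adjusted p = 0.940). Slc38a3, a glutamine transporter of astrocytes, differed by -0.21 ± 0.071 (SE; limma adjusted p = 0.367). Slc17a7, or VGLUT1, the vesicular glutamate transporter of cortex and hippocampus, was at 6.84 ± 0.60 (SD, n = 3) and 6.62 ± 0.29 (SD, n = 5).

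Transcription factor genes of the 2 neuron classes had larger and mostly positive differences, none of them called. Of 9 tested GABA neuron factors 9 had a positive difference, with a median of 0.26, and 0 were called by limma; the count above 0 was 8 if control 1 or tumour-bearing mouse 1 was left out. Dlx1, a homeobox gene of forebrain GABA neurons, was 7.17, 7.30 and 7.40 in controls and 7.67, 7.61, 7.81, 7.73 and 8.01 in tumour-bearing mice. The difference of 0.47 ± 0.092 (SE) did not pass (limma adjusted p = 0.187). Dlx1 passed if the test was limited to probe sets of a single gene or a gene's probe sets were averaged. Lhx6 differed by 0.37 ± 0.15 (SE; limma adjusted p = 0.440) and Six3 by 0.26 ± 0.10 (SE; limma adjusted p = 0.430). Of 10 tested glutamate neuron factors 9 had a positive difference, with a median of 0.19 and 0 called (0.080 with the midbrain covariate and 0.13 without tumour-bearing mice 3 and 4). Tbr1, a factor of cortical glutamate neurons, was 4.02, 4.17 and 4.07 in controls, under the filter level, and 5.21, 4.92, 4.44, 4.95 and 5.14 in tumour-bearing mice. It entered the test only through the group in which it was high, so its difference is given as values alone; with the filter on all 8 arrays it was left out, and 8 of 9 factors had a positive difference (median 0.18). Sim1, of the paraventricular nucleus, differed by 0.30 ± 0.11 (SE; limma adjusted p = 0.384).

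The hypothalamus markers, which share Sim1 and Otp with this list, also had mostly positive differences, 11 of 14, with a median of 0.21 (0.050 with the midbrain covariate, with 9 above 0) and 0 called. Of these Avp and Trh, the vasopressin and thyrotropin-releasing hormone genes, passed if the test was limited to probe sets of a single gene, if a gene's probe sets were averaged, or without tumour-bearing mouse 2. That mouse had the lowest hypothalamus marker level of its group, at -0.050, so leaving it out favours passes of markers higher in that group.

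Markers of striatum and of cortex and hippocampus, regions that express Dlx1 or Tbr1, also had mostly positive differences and 0 called. The mean centred log2 level of 9 striatal markers was -0.12 to -0.11 in controls and -0.070 to 0.47 in tumour-bearing mice, highest in mouse 1, and their summed linear level was 2461 to 2511 and 2496 to 3287. Their median difference was 0.13, or 0.26 with the midbrain covariate and 0.21 without mice 3 and 4; leaving out control 3 gave 0.27 and tumour-bearing mouse 1 gave 0.082. Of 10 tested cortex and hippocampus markers, Tbr1 among them, 8 differences were positive and 2 negative, the median being 0.14 (0.066 without tumour-bearing mouse 1 and 0.21 without mouse 3; 0.21 with the midbrain covariate and 0.23 without mice 3 and 4). Tbr1 counts here although it entered the test only through the group in which it was high. With the filter on all 8 arrays, which left Tbr1 out, 6 of 8 cortex and hippocampus markers were positive and 2 negative (median 0.14). Whether the striatal, the cortex and hippocampus or the hypothalamus markers had a part in the transcription factor values was not tested. Of 10 tested general neuron genes 3 had a positive and 7 a negative difference, the median being -0.032 (-0.068 when control 1 was left out, and -0.016 when control 2 or tumour-bearing mouse 1 was) and 0 called. The synaptic vesicle gene Syt1 differed by 0.0061, and Nefl, the light neurofilament, by -0.35 ± 0.063 (SE; limma adjusted p = 0.135). Nefl passed in the fits with array weights, with probe sets of a single gene, with averaged probe sets and without control 1. Over all features tested, the fit with array weights called 24 and the fit without control 1 called 10.

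**Figure D3:**
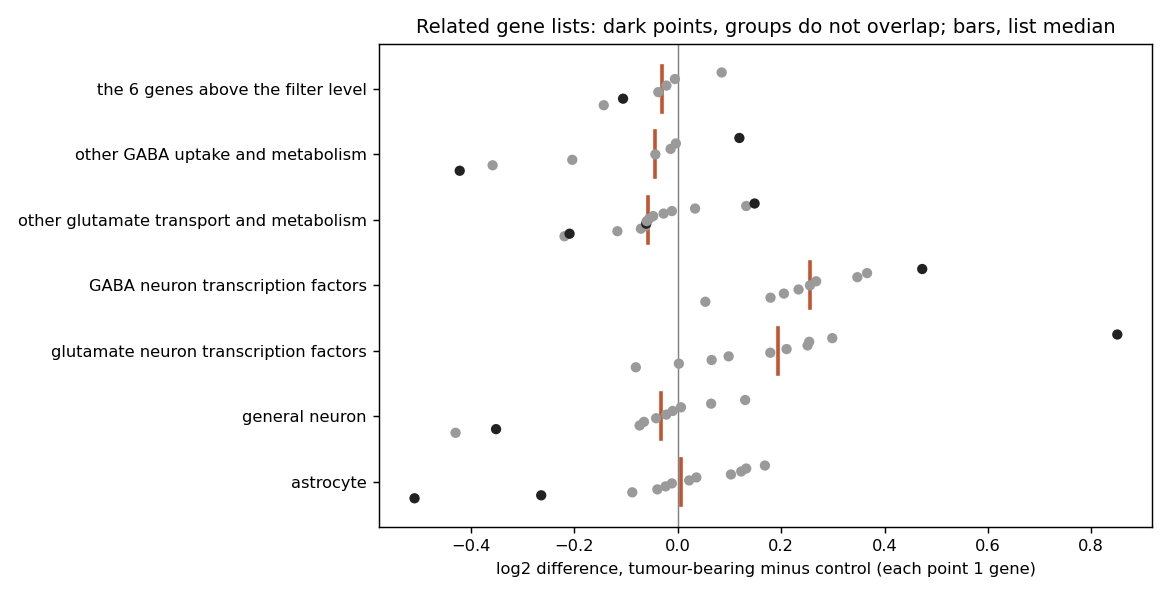
Log2 difference, tumour-bearing minus control (horizontal axis), of every tested gene of 7 lists, 1 point a gene, with a bar at each list's median; dark points are genes whose groups do not overlap. The 6 identity genes lie within -0.14 to 0.085, whereas the medians of the GABA and glutamate neuron transcription factors are 0.26 and 0.19. None of these genes was called by limma. Of all tested genes 5.19% were lower without overlap, and the share higher without overlap is not given.

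Deviations of the mice from their group means were compared between genes. In these 8 mice Slc32a1 varied with Gad1 (Pearson r = 0.81, Spearman rho = 0.83, 8 mice) and with Abat (r = 0.84, rho = 0.90), and Slc17a6 varied against Gad2 (r = -0.73, rho = -0.69). None of the 15 pairs of the 6 genes passed adjustment: the exact permutation p over the 720 orders within groups was 0.0236 for Slc32a1 with Gad1, 0.0431 for Slc32a1 with Abat and 0.0347 for Slc17a6 with Gad2 (rho p = 0.0181, 0.0181 and 0.0875), each with adjusted p = 0.161 for r. Without the 2 mice farthest from the median of the second gene or, in the last pair, of Slc17a6, r was 0.89, 0.61 and -0.64. Slc6a11 varied with none of the others across both groups: with Slc17a6 r was 0.63 over all 8 mice and 0.038 without the 2 farthest mice (rho = 0.55, exact permutation p = 0.164 for r and 0.225 for rho).

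Slc17a6 ran most closely against the mean of the 9 GABA neuron transcription factors. In tumour-bearing mice 1 and 5, where Slc17a6 deviated from the group mean by -0.16 and -0.072, that score deviated by 0.16 and 0.12, and in mice 2, 3 and 4 both signs were turned. Controls followed the same order, with control 1 highest in Slc17a6 and lowest in the score. The r was -0.95 and rho -0.98 over 8 mice (exact permutation p = 0.00139 for each, the smallest the 720 orders can give), and r was -0.97 without the 2 mice farthest from the median score. Among the 108 relations of 6 genes with 18 lists this did not pass (adjusted p = 0.150 for r and 0.0750 for rho). Gad2 had the opposite sign, r = 0.87 and rho = 0.76 with that score (exact permutation p = 0.0222 and 0.0722, adjusted p = 0.218 and 0.390; r = 0.75 without the 2 farthest mice). Slc17a6 also ran against the striatal score (r = -0.82, rho = -0.67, exact permutation p = 0.0167 and 0.0417, adjusted p = 0.218 and 0.340; r = -0.69 without the 2 farthest mice). With the cortex and hippocampus score r was -0.82 too (rho = -0.69, adjusted p = 0.260 and 0.417), but -0.31 without the 2 farthest mice. Gad1 ran with the midbrain dopamine score (r = 0.81, rho = 0.98, exact permutation p = 0.00694 and 0.00139, adjusted p = 0.218 and 0.0750). Abat and Slc32a1 ran with the raphe score (r = 0.92 and 0.88, adjusted p = 0.218 and 0.219 for r). The relations named are a choice, and 2 other scores gave Gad2 smaller p-values than the GABA factor score. With the microglia score r was -0.73 and rho -0.88 (exact permutation p = 0.0153 and 0.0139, adjusted p = 0.218 and 0.300). With the striatal score r was 0.56 and rho 0.62 (exact permutation p = 0.00972 and 0.0125, adjusted p = 0.218 and 0.300). None of these passed adjustment. All values of a mouse share 1 array and 1 dissection.

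**Figure D4:**
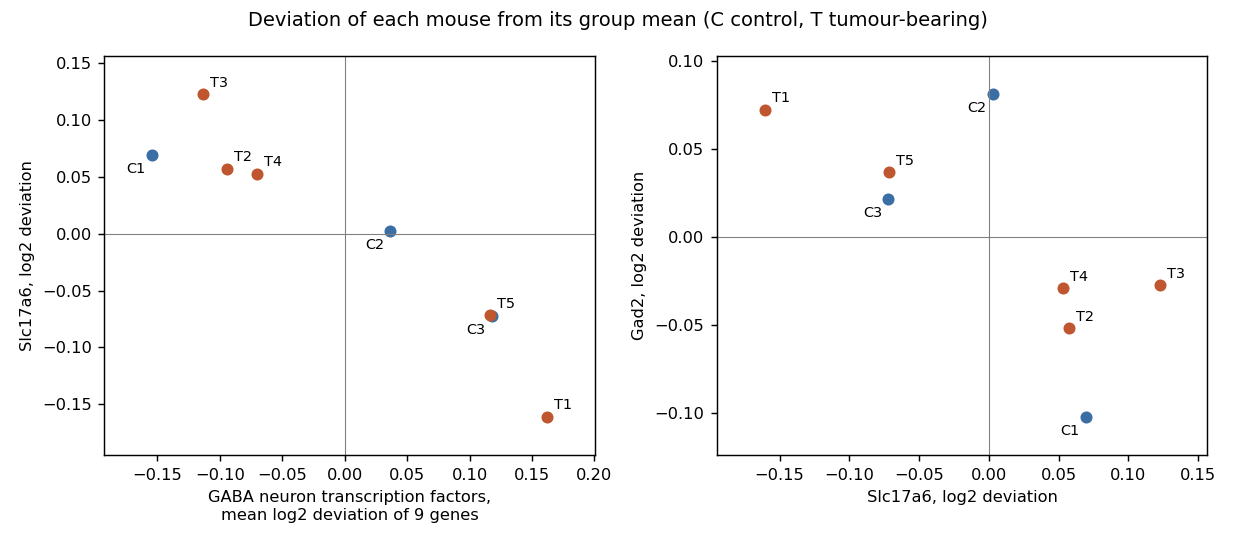
Each point is 1 mouse, as its log2 deviation from the mean of its own group (C control, T tumour-bearing, with the replicate number): left, Slc17a6 (vertical) against the mean of 9 GABA neuron transcription factor genes (horizontal), and right, Gad2 (vertical) against Slc17a6 (horizontal). Points fall from upper left to lower right, with r = -0.95 on the left and r = -0.73 on the right, neither past adjustment.

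The genes most like each of the 6 were taken as the 3 highest Pearson correlations of within-group deviations over the 8 mice among all tested genes, so that a high value is fixed by the choice. For Slc32a1 they were Chsy3 (r = 0.98), Nefm, the medium neurofilament (0.98), and Kcnab2, a potassium channel subunit (0.98). For Gad1 they were Lhfpl3, Dip2b and Slc35f3 (0.97, 0.97 and 0.96), and for Gad2 Zfp784, Ndrg4 and Mapk8ip3 (each 0.98). Slc17a6 had Arfip1 (0.99), Ppm1b (0.98) and the ribosomal protein gene Rps15 (0.98). Slc6a11 had Tek, an endothelial receptor (0.99), Nrsn1 (0.99) and 1700030J22Rik (0.98), and Abat had Sbf1, Mir495 and Gadd45a (0.98, 0.98 and 0.97). No member of the 6 was among the 3 nearest genes of another.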

How the data were processed

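RNA of 8 single hypothalami and 2 pools was hybridised to Affymetrix whole-transcript arrays. The deposited values are log2 levels from RMA run by the authors, as the submitters' processing notes name it; its version is not stated in the sources used here, and the log2 scale was inferred from the values. RMA forces a common distribution and compresses folds. Probe sets over 20 in linear units on 3 or more single-mouse arrays, 22837 in all, were compared with limma 3.58.1 in R 4.3.3 (lmFit, eBayes with trend, Benjamini-Hochberg over all); statmod 1.5.0 served the robust fit and matplotlib 3.10.9 the figures. Permutation tests were exact. The fit was tested on simulated data. Groups came from the sample titles; the pools entered 1 alternative only.

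The 7 genes and the lists were chosen with earlier results of these data known. Genes to name were the 7, the called or up to 3 lowest-p genes of a list, and the 3 most alike of each. Marker lists of cell types and regions were given mainly as sets, so not all of their lowest-p genes are named. Among those left out were Gpr6, Rprm, Gata3 and Aspa. Aldh5a1, Slc12a5, Slc1a2, Slc6a13, Slc17a7, Syt1, Hcrt, Nkx2-1, Gh, Tph2 and Chrna6 were added for their roles, after their values were seen. Npy was added for its large difference. Fgfr3, named among the astrocyte markers, was not among the 3 lowest-p genes of that list, which were Aqp4, S100b and Slc1a3. Members were left out of marker lists. The labels call the arrays individual mice; their number limits precision. Same-numbered control and tumour-bearing mice did not deviate together (correlations -0.0020, 0.0084 and 0.0089), so the numbers were not taken as pairs. Alternatives were the filter, variance model, array weights, normalization, replicate block, pools, probe set mean, midbrain covariate and mice left out.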

Additional observations from a re-analysis of the deposited data

How the results depend on the processing

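Under all 21 alternatives 0 of the tested identity genes was called, and under the 13 run for it the exact permutation count stayed at 0. Gad2, Slc17a6 and Slc6a11 kept their sign throughout, at 0.034 to 0.13, -0.20 to -0.10 and -0.13 to -0.084. The others, all near 0, changed sign in some. With the replicate block Gad1 was 0.00036 and Abat 0.015, with the number of called members still 0; the numbers share no pairing in the data. With the midbrain score as a covariate, which nearly follows the groups, Slc32a1 was 0.21, Gad1 0.076 and Abat 0.022. Leaving out tumour-bearing mice 3 and 4 gave 0.056, 0.0096 and 0.0069. Leaving out 1 mouse gave -0.19 to 0.058 for Slc32a1, -0.048 to 0.0070 for Gad1, -0.040 to 0.026 for Abat and -0.20 to 0.081 for Slc17a6 minus Slc32a1, which was -0.26 without those 2 mice together. The cause was not tested. Slc17a8, below the filter, could be tested only without it and has no value here. The 3 and 5 mice limit the precision to the intervals given.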
